A study of Mus musculus with 5 samples.

Results

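The genes described here make, load and regulate major histocompatibility complex (MHC) class I molecules. The members are Nlrc5, Tap1, Tap2, Tapbp, Psmb8, Psmb9, Psmb10, B2m, H2-K1 and H2-Q4, 10 genes taken by symbol out of a table in which 21372 symbols have a locus of their own. Of the 10, 9 had such a locus. Tapbp was listed only in a locus joined with Rgl2 and Zbtb22, and Psmb10 had a joined locus besides its own.

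RNA-seq was made from 5 cultures of mouse embryonic fibroblasts, connective-tissue cells grown from embryos of embryonic day 14.5, of strain background C57BL/6 and at passage 30. Of these, 4 were Prep1 hypomorphic, carrying an allele with reduced Prep1 (gene Pknox1), and were infected with empty vector (EV) or overexpressed Meis1 (M), Prep1 (P) or Meis1 and Prep1 together (MP). Whether a line was 1 clone or a pool: not given in the sources used here. The 1 other was Prep1 wild-type (WT) and its label names no vector, and the shared growth text names hypomorphic embryos for all 5. Each group holds 1 library, so no test can be made, no difference has a replicate check, and every comparison is between libraries, not conditions. In such bulk RNA, fewer cells that express a gene and less RNA per cell cannot be told apart.

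Class I molecules display peptides from inside the cell to CD8 T cells. The proteasome cuts proteins into peptides, and under interferon its catalytic subunits are exchanged for Psmb8, Psmb9 and Psmb10, which gives the immunoproteasome. The transporter made of Tap1 and Tap2 carries the peptides into the endoplasmic reticulum, where tapasin (Tapbp) helps to load them on a heavy chain bound to beta-2 microglobulin (B2m). Nlrc5 is a transactivator that acts at the promoters of heavy chain, B2m, Tap1 and immunoproteasome genes, together with RFX, CREB/ATF and NF-Y proteins. Fibroblasts express the pathway at a modest level that interferon raises.

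Levels are given in scaled units: the authors' FPKM, a value per transcript length, after each library was scaled so that its upper quartile over 22338 single-gene loci was 10. Before scaling that quartile ran from 9.63 FPKM in MP to 429 in M. Differences are log2((level + 1)/(level + 1)), which understates changes at low levels. Meis1 was high in the libraries labelled with it, M (16.8) and MP (15.4), and stood at 8.32 in EV. Pknox1 was at 11.02 in WT and 2.16 in EV, but at 0.554 and 0.569 in the libraries labelled P and MP, which goes against those labels and limits every direction drawn from them. Olfactory and vomeronasal receptor genes, normally confined to nasal sensory cells, had a value above 0 at 99.8% of 1447 loci in EV and 70.4% in M but at 11.4% to 17.6% in P, MP and WT. Their 99th percentile (EV 0.909 scaled units, M 1.41, P 0.381, MP 0.331, WT 0.414) is used below to mark low levels. All 8 fibroblast markers with a locus of their own were over it in the 5 libraries, with summed levels between 91.0 in WT and 116 in EV. Among them Pdgfra ran from 2.56 in EV to 11.8 in WT, while Col3a1 (log2 -1.07) and Fn1 (-0.74) were lower in WT than EV. Of 8 endothelial and epithelial markers, Krt8 was the 1 at 1 unit or more, in P (1.16). By the receptor percentile, 1 of the 8 was over it in EV, 2 in each of P and MP and 0 in M and WT. These were Cdh5, an endothelial gene, in EV (0.953), P (0.753) and MP (0.546), and Krt8 in P and MP (0.445). Of 16 immune cell markers with a locus of their own, 2 lay over that percentile in each of EV, M, P and MP and 4 in WT, with summed levels of 13.9 in WT to 16.4 in EV and P. Cd14 and Csf1r, monocyte genes, made up most of the sum. Ptprc, the pan-leukocyte gene, was at 0.362 or less in the 5 libraries and Emr1, a macrophage gene, was listed at 0 in P, MP and WT.

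Promoter sequence was available for 8 of the 10 members in RefSeq (GRCm38.p6), and 4 stretches are shown with matches to short letter patterns marked. Order and spacing of the matches were not part of the search, and binding was not tested. In H2-Q4 the marked X2-like core lies between Y-box matches on opposite strands, whereas in H2-K1 and B2m it lies before the only Y-box match. Capitals mark an IRF core (AANNGAAA), an X2-like core (TGACG, the CREB/ATF half-site) and a Y-box (ATTGG, the NF-Y site), on either strand. H2-K1 lies at chr17:34000348-34000487 on the minus strand, H2-Q4 at chr17:35379447-35379616 on the plus strand and B2m at chr2:122147507-122147686 on the plus strand, and each run ends at the base before the start site. Tap1 and Psmb9 start in opposite directions, and the whole 225 bases between their starts, chr17:34187331-34187555, are written on the strand of Tap1.
H2-K1: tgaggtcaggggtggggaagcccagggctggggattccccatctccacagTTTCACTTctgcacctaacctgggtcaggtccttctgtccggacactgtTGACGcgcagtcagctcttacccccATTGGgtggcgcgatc
H2-Q4: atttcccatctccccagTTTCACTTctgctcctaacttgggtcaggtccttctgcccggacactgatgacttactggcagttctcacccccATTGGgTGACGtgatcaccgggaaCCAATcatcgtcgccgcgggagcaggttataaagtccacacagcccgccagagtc
B2m: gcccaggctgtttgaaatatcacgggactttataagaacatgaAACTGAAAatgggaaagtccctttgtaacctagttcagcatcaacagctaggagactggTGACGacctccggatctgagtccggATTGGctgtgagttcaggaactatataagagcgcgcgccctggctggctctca
Tap1 and Psmb9: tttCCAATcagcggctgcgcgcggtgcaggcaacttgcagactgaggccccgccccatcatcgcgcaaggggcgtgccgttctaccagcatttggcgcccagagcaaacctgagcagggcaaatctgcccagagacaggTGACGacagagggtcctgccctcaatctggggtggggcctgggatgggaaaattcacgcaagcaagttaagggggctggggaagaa

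Over the full RefSeq promoter windows, which run from upstream to just past the start site, the Y-box letters were found in 6 of the 8 members (B2m, H2-K1, H2-Q4, Psmb9, Tap1 and Tapbp) and in 37.9% of 27025 mouse promoters. The X2-like core was found in 5 of the 8 and in 21.0% of all promoters. The windows of Tap1 and Psmb9 overlap, so both count the same letters. An IRF core was found in 3 of the 8, the heavy chains and B2m, and in 24.2% of all. The AP-1 core (TGANTCA), searched because AP-1 is named in the study's title, and the Meis and Prep half-site (TGACAG) were in none of the 8 and in 7.93% and 19.3% of all promoters. The patterns were searched separately on both strands, and a match describes letters only.

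The peptide transporter genes were lowest in the libraries labelled P and MP. Tap2 was highest in WT, whereas for Tap1 WT and EV were close and EV was the higher of them under quantile normalisation and under scaling to the median. For Tap1, EV held 3.44 scaled units, M 1.34, P 0.480, MP 0.349 and WT 3.79. M lay between, and P and MP were under 0.5. For Tap2, the partner of Tap1, EV held 1.41, M 0.523, P 0.202, MP 0.298 and WT 5.33, a 26.4-fold span from P to WT. Tap2 was the member with the widest span. In P and MP it was under the receptor percentile, and so were both Tap genes in M.

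The interferon-inducible proteasome subunits Psmb8 and Psmb9 followed the same order as each other, with EV and WT above M, MP and P. For Psmb8, which takes the place of Psmb5, EV held 1.94, M 0.344, P 0.157, MP 0.206 and WT 1.34. For Psmb9, which takes the place of Psmb6, EV held 0.882, M 0.152, P 0.0516, MP 0.146 and WT 0.843. This order rests on 1 library a group, and the share of all genes with it was not counted. Both genes were under the receptor percentile in M, P and MP. Psmb9 in EV was itself within the receptor percentile of that library, whereas in WT it was over it. Psmb10, the subunit that takes the place of Psmb7, had another order: 2.04 in P, 1.89 in WT, 1.64 in EV, 1.04 in M and 0.877 in MP. A second locus carrying Psmb10, joined with Slc12a4, Lcat and Ctrl, lay between 23.7 and 26.7 in the 5 libraries, and what Psmb10 adds to it cannot be read from these values.

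B2m and H2-K1 were the most abundant members with a locus of their own in all 5 libraries. For H2-K1, the classical heavy chain K, EV held 19.5, M 14.6, P 8.33, MP 8.98 and WT 8.41. P, MP and WT were nearly level, and EV and M lay above them. H2-Q4, a heavy chain gene of the Q region, was lower in level and more widely spread (4.70-fold against 2.34-fold for H2-K1), with EV at 5.84 and M at 3.21 over P at 1.24, MP at 1.33 and WT at 1.61. B2m, the chain shared by all class I molecules, varied least among the members with a locus of their own, from 11.01 in WT to 16.95 in EV, with P at 13.6, MP at 14.4 and M at 15.4. The joined locus holding Tapbp lay between 29.5 in M and 32.2 in EV, a 1.09-fold span. The 99th percentile of the scaling loci was only 1.75 to 2.10 times the upper quartile. Whether differences at levels this high are narrowed in these tables was not tested.

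For Nlrc5, EV held 7.59, M 9.57, P 1.82, MP 4.53 and WT 1.83. It was highest in M, where Tap1, Tap2, Psmb8 and Psmb9 were under the receptor percentile, and low in WT, where Tap2 was highest. The authors marked their estimate of Nlrc5 as failed in all 4 tables, so its values carry that limit. For M alone they also marked B2m and the joined loci of Tapbp and Psmb10 as failed, which limits those comparisons of M with EV. In 50-base words of its protein-coding transcripts Nlrc5 shared none with another gene, whereas 39.2% of those of H2-Q4 occur in other genes (chiefly Gm11131 and H2-Q6), 6.87% of those of H2-K1, 12.1% of Tap2, 9.71% of Psmb9 and 6.27% of Tap1. H2-Q4 is therefore uncertain, as is the handling of such reads (not given in the sources used here). The words shared by Psmb9 all occur in Tap1.

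**Figure D1:**
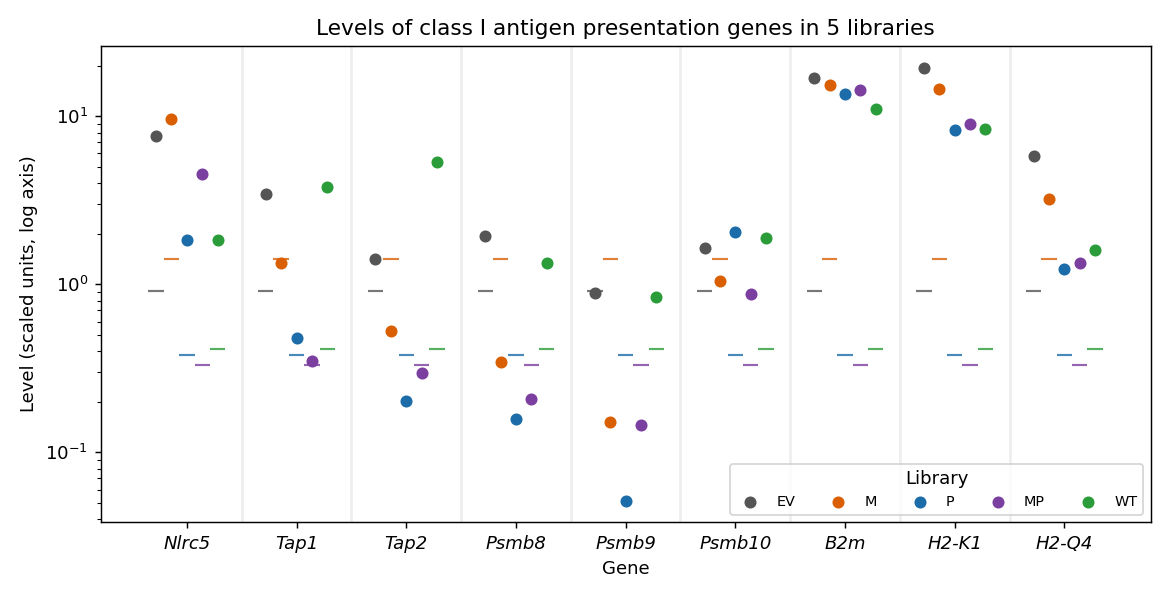
Level of each member with a locus of its own (log axis, scaled units) in the 5 libraries, 1 point a library. The short lines mark the 99th percentile of olfactory and vomeronasal receptor genes in that library; Tap2, Psmb8 and Psmb9 lie under it in P and MP and over it in WT.

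The comparison of M with EV asks what added Meis1 goes with where Prep1 is low. Of the members with a locus of their own, 8 were at 1 scaled unit or more in 1 of both libraries, and Psmb9 was not. In M, 7 of the 8 were lower than EV, as were 53.5% of all genes kept by that rule (58.4% in P, 57.8% in MP and 55.9% for WT). Nlrc5 was higher (log2 0.30), with the members at a median of -0.53 against -0.01 over 11144 genes. Psmb8 was the 1 member at least 2-fold lower (log2 -1.13), where 0.628% of all genes were, and Tap1 followed at -0.92, H2-Q4 at -0.70 and Tap2 at -0.66. H2-K1 (-0.40), Psmb10 (-0.37) and B2m (-0.13) were closer to EV. The 4 members over the receptor percentile in both libraries (Nlrc5, B2m, H2-K1 and H2-Q4) had a median of -0.26 and none was 2-fold lower. The other 4 were under that percentile in M, and the part of the receptor signal in their ratios was not tested. Tap2 and Psmb8 reached 1 unit in EV and not in M, so nothing is read from the count of members 2-fold lower.

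In the library labelled P, 6 of 8 members were at least 2-fold lower than EV, where 1.85% of 11163 genes were. Tap1, Tap2 and Psmb8 reached 1 unit in EV and not in P, so the filter kept them through EV, the library with receptor signal. Nothing is therefore read from the count or the median of the 8. Over the 6 members above the receptor percentile in both libraries, 4 were 2-fold lower and the median was -1.36. Tap1 is among these 6, and the share of all genes under that rule was not counted. The members 2-fold lower out of the 8 were H2-Q4 (log2 -1.61), Nlrc5 (-1.61), Tap1 (-1.58), Psmb8 (-1.34), H2-K1 (-1.13) and Tap2 (-1.003). In level, Tap1 was at 13.97% of EV, Tap2 at 14.3%, Psmb8 at 8.13%, H2-Q4 at 21.3% and H2-K1 at 42.8%. B2m was at 80.5% of EV and Psmb10 at 124%. The median of the 8 was -1.24 and that of all genes -0.05.

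In the library labelled MP, 4 of 8 members were at least 2-fold lower than EV, where 2.05% of 11034 genes were. Tap1 was at 10.17% of EV (log2 -1.72), Psmb8 at 10.64% (-1.28), H2-Q4 at 22.8% (-1.55) and H2-K1 at 46.1% (-1.04). Tap2 (-0.89), Nlrc5 (-0.63), Psmb10 (-0.49) and B2m (-0.22) were lower by less, and B2m was higher instead (0.20) where libraries were scaled to their medians. The median of the 8 was -0.96, against -0.04 over all genes. Tap1, Tap2 and Psmb8 were again kept through EV, as was Psmb10, so nothing is read from the count or the median of the 8. Over the 6 members above the receptor percentile in both libraries 3 were 2-fold lower, with a median of -0.84. Tap1 and Psmb10 are among these 6, and the share of all genes under that rule was not counted.

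In WT against EV the members went both ways. Nlrc5 (log2 -1.60), H2-Q4 (-1.39) and H2-K1 (-1.12) were at least 2-fold lower, 3 of 8 members where 3.2% of 11657 genes were. Tap2 was the 1 member at least 2-fold higher (1.39), where 6.31% of all genes were. Tap1 (0.11) and Psmb10 (0.13) were close to EV and changed sign under quantile normalisation (-0.33 and -0.17) and under scaling to the median (-0.20 and -0.13). Psmb8 (-0.33) and B2m (-0.58) were lower by less than 2-fold. In WT, the line of origin, Prep1 genotype and infection cannot be told apart.

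**Figure D2:**
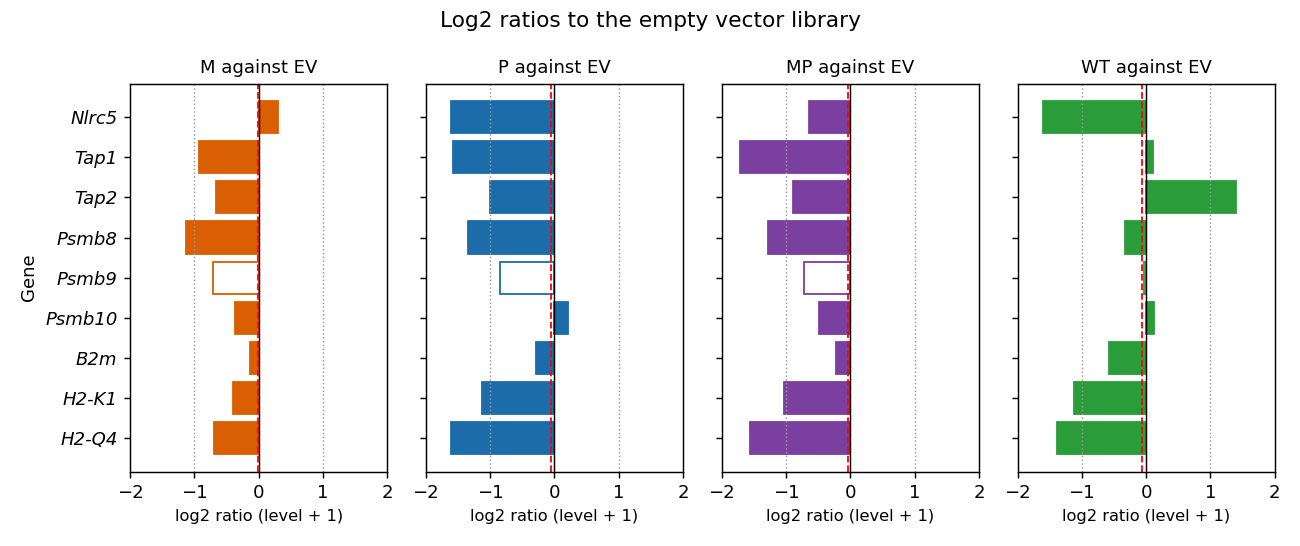
Log2 ratio of each member to EV, on the (level + 1) scale, for M, P, MP and WT; open bars mark Psmb9, which was under 1 scaled unit in both libraries of each pair. The dashed red line is the median of all genes and the dotted lines are 2-fold; 6 bars in P and 4 in MP reach or pass the lower one, and in WT that of Tap2 passes the upper one.

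The 4 comparisons above share the EV library and EV carried receptor signal, so P and MP were also set against WT, where receptor genes were about equally low. The members furthest below WT in both were Tap2 and Tap1. Tap2 in P was at 3.79% of WT (log2 -2.40), Tap1 at 12.7% (-1.69) and Psmb8 at 11.7% (-1.02). These 3 of 8 members were at least 2-fold lower, where 6.41% of 11404 genes were. All 3 reached 1 unit in WT and not in P, so the filter kept them through the library where they were high, and nothing is read from the count. H2-K1 (-0.01), Nlrc5 (-0.0036), Psmb10 (0.07), H2-Q4 (-0.22) and B2m (0.29) lay close to WT. In MP, Tap2 was at 5.59% of WT (-2.29) and Tap1 at 9.23% (-1.83), 2 of 8 members at least 2-fold lower, where 8.5% of 11317 genes were, both kept through WT in the same way. Psmb8 (-0.96) came next and Psmb10 stood at -0.62, while Nlrc5 was higher than WT (0.97).

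**Figure D3:**
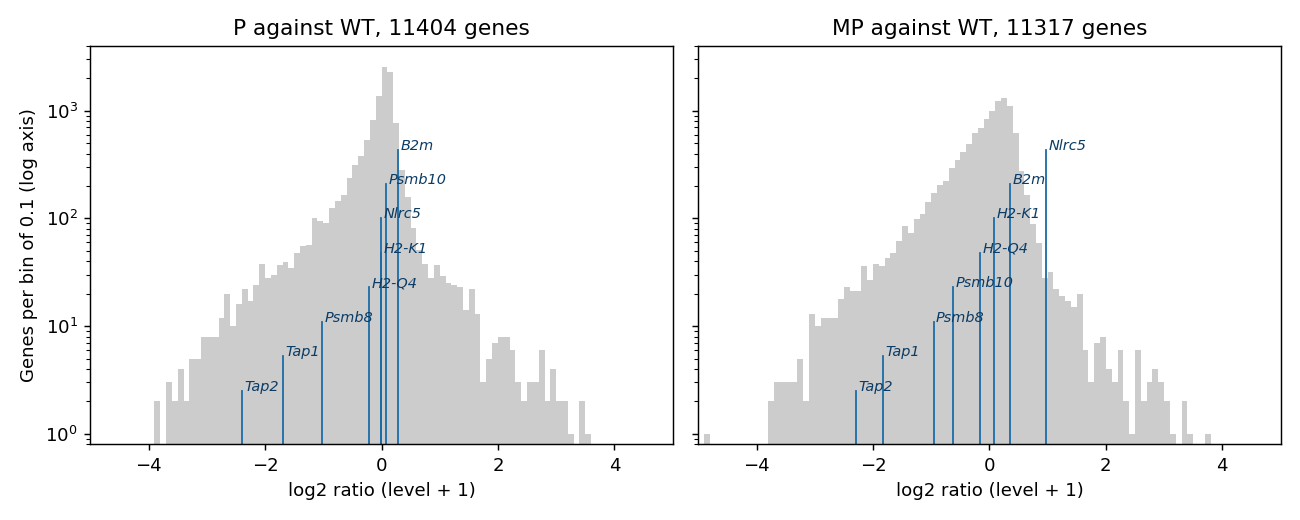
Distribution of log2 ratios over all genes (grey, genes per bin, log axis) for P and for MP against WT, with each member drawn as a labelled line; the height of a line carries no value. Tap2 and Tap1 lie in the lower tail of both panels, and H2-K1 lies near 0 in both.

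The libraries labelled MP and M differ by added Prep1, and MP and P by added Meis1, per the labels. These ratios are set across separately normalised tables. Against M, Nlrc5 (log2 -0.93), H2-Q4 (-0.85), Tap1 (-0.79) and H2-K1 (-0.64) were lower in MP. None of the 6 members at 1 unit or more was 2-fold lower, where 1.28% of 10855 genes were. Against P, Nlrc5 was at 249% in MP (0.97) and Psmb10 at 42.9% (-0.70). B2m, H2-K1 and H2-Q4 differed by 0.10 or less in size, and none of 5 members was 2-fold lower, where 0.761% of 10771 genes were. The transporter genes, Psmb8 and Psmb9 were under 1 unit in both libraries of that pair.

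On chromosome 17, Psmb9, Tap1, Psmb8 and Tap2 are neighbours inside the class II region, between H2-DMb1 and H2-Ob. The level in WT was higher than in both P and MP at 12 of the 13 protein-coding genes from Brd2 to H2-Eb2, against 35.8% of 11867 genes at 1 unit or more in any library. H2-Ob and H2-Eb2 count there although their WT level was under the receptor percentile and P and MP were listed at 0. Psmb9, H2-Ob, H2-Aa, H2-Eb1 and H2-Eb2 were under 1 unit in every library, so the count and the share do not rest on the same filter. H2-DMa, H2-DMb2, H2-DMb1 and H2-Ab1 reached 1 unit in WT alone. Nothing is therefore read from the count of 12 either. At least 2-fold lower than WT in both P and MP were 6 of the 13. Of all genes kept, 6.41% were so in P and 8.5% in MP, and the share in both was not counted. The 6 were at 1 unit or more in WT and under it in P and MP, so nothing is read from that count. This stretch was picked after its values were seen, so the counts are a description. For H2-DMb1, a subunit of the class II peptide editor DM, WT held 6.12, EV 0.607, M 0.231, P 0.199 and MP 0.190. H2-DMa, its partner, stood at 3.53 in WT and between 0.604 and 0.891 in the hypomorphic libraries. H2-Ab1, a class II heterodimer chain, was at 1.14 in WT, 0.0492 for EV and 0.0319 for M, and was listed at 0 in P and MP. Its partner H2-Aa was at 0.732 in WT, 0.123 for EV, 0.0288 for M and listed at 0 in P and MP. Brd2, a chromatin reader gene at the edge of the stretch, was level, between 14.1 in WT and 17.6 in EV. Ciita, the class II transactivator, was at 0.135 in WT and 0.254 in EV, in both under the receptor percentile. Of the 16 immune cell markers, 4 were over the receptor percentile in WT and 2 in each other library, and whether other cells take part in the WT values was not tested.

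**Figure D4:**
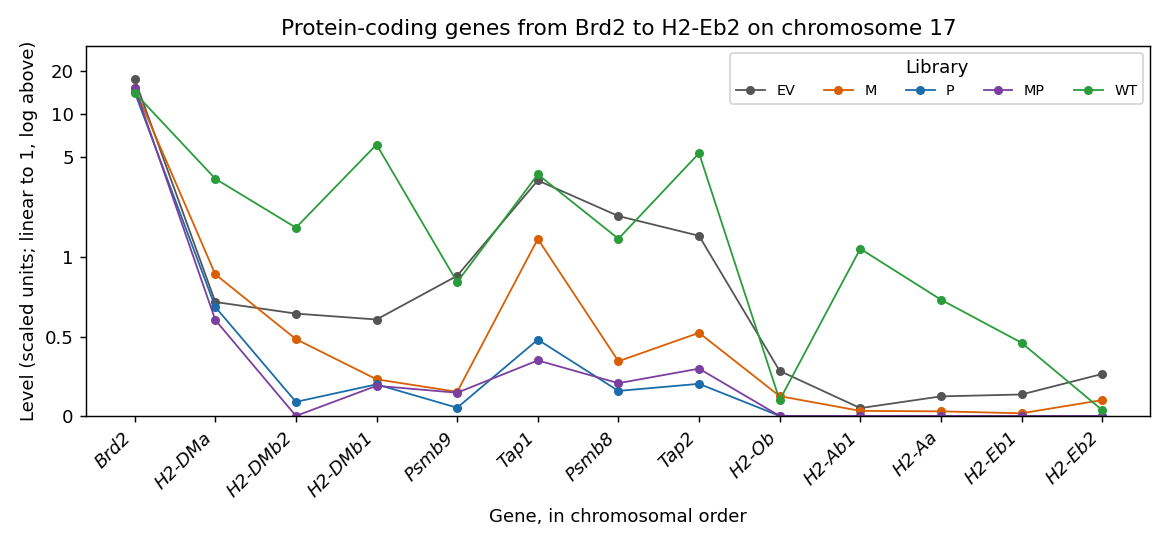
Levels (scaled units, linear to 1 and log above) of 13 protein-coding genes in chromosomal order, 1 line a library. WT is above P and MP from H2-DMa to H2-Eb2, most at H2-DMb1 and Tap2, and the libraries meet at Brd2.

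Other genes of the pathway came from lists drawn up with earlier results known. Of 30 further class I heavy chain genes, 23 had a locus of their own and 11 were at 1 unit or more in EV or the library compared. H2-Q5, H2-Q7 and H2-Q8 of the Q region, related copies whose reads may be split between them and are uncertain, were the 3 at least 2-fold lower than EV in each of P, MP and WT, where the shares of all genes were those given above (1.85%, 2.05% and 3.2%). For H2-Q5, EV held 3.09, M 2.16, P 0.806, MP 0.678 and WT 0.531. The medians were -0.29 (M), -0.48 (P), -0.59 (MP) and -0.56 (WT). Lower than EV were 9 of 11 in M and in WT and 11 of 11 in P and in MP. Several of the 11, H2-Q5, H2-Q7 and H2-Q8 among them, reached 1 unit in EV and not in P, MP or WT, so the filter kept them through EV and nothing is read from these counts. The classical gene H2-D1 sat in a locus joined with H2-L and LOC547349, where EV held 29.4, M 20.5, P 14.4, MP 15.8 and WT 11.5. EV and M lay over the other libraries there, as for H2-K1. H2-M3, which presents formylated peptides, was instead highest in WT, at 8.38, with EV at 4.33, M at 4.48, P at 2.96 and MP at 2.17.

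Most partners in loading and peptide supply lay within 2-fold of EV, and genes 2-fold lower were few over all genes too. Their median log2 ratio was -0.06 in M, -0.25 in P and -0.03 in MP, while in WT it was -0.37, near that of the members (-0.45). Of the 14, M had 8 lower than EV, P 14, MP 10 and WT 13. Of these 14 chaperones and trimming peptidases, none was 2-fold apart from EV in M, P or MP, and Hspa5, the chaperone BiP, was the 1 lower in WT (log2 -1.13). Over all genes 0.628% (M), 1.85% (P), 2.05% (MP) and 3.2% (WT) were at least 2-fold lower, so nothing is read from these counts. The share 2-fold higher was not counted for M, P or MP. Erap1, which trims peptides in the endoplasmic reticulum, lay between 9.13 in P and 10.9 in M, and Tapbpl, a tapasin relative, between 2.97 in MP and 4.09 in WT. Canx (-0.75) and Hsp90b1 (-0.63) were lower in WT by less than 2-fold. Psme1 and Psme2, the interferon-inducible proteasome activator PA28, did not share the pattern of Psmb8. Psme1 lay between 16.3 in M and 19.7 in EV, and Psme2 between 8.55 in WT and 11.4 in EV. Psme4, another activator (-0.32), and Pomp, which assembles the proteasome (-0.88), were lower in WT without reaching 2-fold.

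The constitutive catalytic subunits were high in every library. For Psmb6, EV held 14.8, M 12.8, P 11.3, MP 12.8 and WT 10.23. Psmb7 was at 15.5 in EV and 6.25 in WT (log2 -1.19), with M at 10.56, P at 8.39 and MP at 14.1. Psmb5 was measured in a locus joined with the microRNA gene Mir686, between 11.6 in WT and 19.4 in EV. Of the 11 other core subunits, none was 2-fold apart from EV in M, P or MP and Psma7 was 2-fold lower in WT (-1.01). The shares of all genes 2-fold lower were those given above (0.628%, 1.85%, 2.05% and 3.2%), so nothing is read from these counts. Psma2 stood at -0.98 in P and -0.96 in WT, and Psma4 at -0.77 in WT. The list had a median of -0.20 in M and -0.21 in MP, and of -0.41 in P and -0.50 in WT. Psma1 and Psma3 were above EV in M (0.03 and 0.05) and, with Psma5, in MP (0.03, 0.07 and 0.05).

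Regulators of the pathway were close to EV. Of 25 with a locus of their own, 24 were at 1 unit or more, and their medians lay between -0.07 and 0.00 in the 4 comparisons. Irf1, an activator of class I and immunoproteasome genes, lay between 9.55 in MP and 10.9 in WT. Rfx5, a DNA-binding subunit of the RFX complex, lay between 5.37 in MP and 7.17 in WT. Irf7, a driver of type I interferon, was an exception, as EV held 7.79, M 4.002, P 4.85, MP 2.45 and WT 0.647 (log2 -2.42 in WT and -1.35 in MP). Socs1, an inhibitor of interferon signalling, was highest in WT, at 10.58 against 3.98 in EV (1.22), and Stat2 stood at -0.79 there. 

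Class I-like molecules differed in another way. Fcgrt, the neonatal Fc receptor, stood at 12.3 in WT and between 1.46 and 2.52 in the other 4 libraries. Cd1d1, which presents lipids, was at 2.21 in EV and 3.94 in P (log2 0.62), and Hfe, an iron regulator, at 0.710 in EV and 1.56 in WT (0.58).

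**Figure D5:**
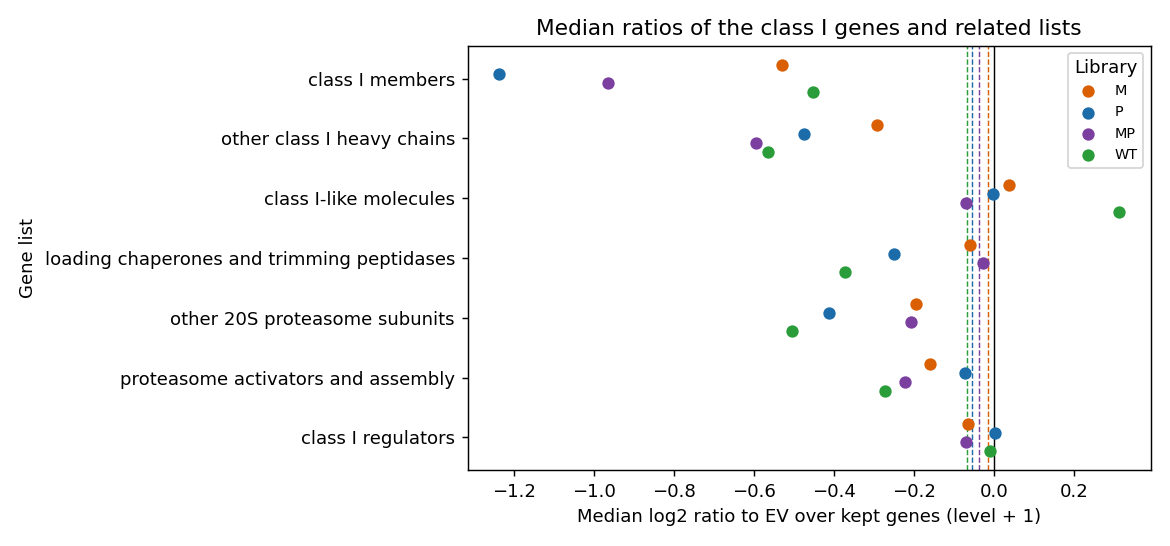
Median log2 ratio to EV over the genes kept, for the class I members (8 genes) and 6 related lists, 1 point for each of M, P, MP and WT; dashed lines are the medians of all genes. The members lie lowest in P (-1.24) and MP (-0.96), while the class I regulators lie near 0. Tap1, Tap2 and Psmb8 were kept through EV in P and MP, so nothing is read from the medians of the members there.

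P and MP were the lowest 2 of the 5 libraries at 5 of the 9 members (Tap1, Tap2, Psmb8, Psmb9 and H2-Q4). Over the 11867 genes at 1 unit or more in any library the share was 8.28%. Psmb9, at most 0.882, is not among those, which leaves 4 of 8 members. Tap1, Tap2 and Psmb8 were under 1 unit in both P and MP and were kept through other libraries. Nothing is therefore read from the count. Genes outside the lists with ratios most like the medians of all 9 members, Psmb9 included (-0.66 in M, -1.13 in P, -0.89 in MP and -0.33 for WT), by Euclidean distance over the 4 comparisons among 9366 genes at 5 units or more, were Adora2b (0.38), Mid1 (0.44), Nmi (0.53), Rspo2 (0.59) and Sfi1 (0.59). For Adora2b, an adenosine receptor, EV held 5.72, M 4.29, P 2.53, MP 2.58 and WT 4.68. Nmi, an interferon-inducible gene, stood at 7.30, 5.02, 3.89, 4.602 and 5.77 in the same order.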

How the data were processed

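The authors deposited 4 tables of 61082 loci, each setting EV against 1 other library. Values are FPKM per locus, per the file headers and the submitters' processing notes, which name TopHat, Cufflinks, Cuffdiff and mm9. No version, annotation, strand setting or normalisation was found (not given in the sources used here). A p-value and a q-value per locus come from the authors' own comparison of single libraries. The authors' deposited tables mark 0 of 9 member loci as significant for M, 7 each for P and MP and 8 for WT. For M, 2 of the 9 were marked as failed and 1 as not tested, so these could not be called. P and MP each had 1 failed and 1 not tested, and WT had 1 failed. The counts are on unscaled values, where the median log2 ratio of all genes was itself -3.23 (P), -3.48 (MP) and -3.06 (WT). The share of all loci marked as significant was not counted. Nothing is therefore read from the member counts, and no p is used here.

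Loci without a symbol (37277) or joining symbols (911) were left out. Where a symbol had several loci, that of highest mean log2(scaled level + 1) was taken. EV came from the M table; the other EV columns differ from it by 1 factor (0.972 to 1.12). A gene was kept at 1 scaled unit in 1 of both libraries, and 2-fold is a log2 ratio of 1 in size. The pipeline was tested on simulated data (Python 3.11.15, pandas 2.3.3). Depth is unknown: the commonest ratio between libraries at loci without a symbol held for at most 241 of 11244 loci, so reads could not be recovered. Promoters are RefSeq GRCm38.p6, and 50-base words come from GENCODE M21 transcripts; neither is the files' build, and no gene coordinates were joined to it. Protein identities were planned and are not used here.

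The members and lists were chosen with earlier results of these data known. Named genes are the members, the 3 most changed of each list, genes fixed by name, and the 5 nearest in pattern; some of these are not reported here. H2-M3, H2-Aa, Ciita, Ptprc, Emr1 and the stretch of neighbours were chosen after their values were seen.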

Additional observations from a re-analysis of the deposited data

Results flagged for a closer look

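Among members that reached 1 scaled unit in a library of each pair, 4 had ratios of opposite sign for the same addition in its 2 settings, with 1 library on each side, so the differences were not tested. With Meis1 added, B2m was lower in M than EV (log2 -0.13) and higher in MP than P (0.0739). H2-K1 stood at -0.40 and 0.10 in the same pairs, and H2-Q4 at -0.70 and 0.0571. Tap2 (-0.66 and 0.11), Psmb8 (-1.13 and 0.06) and Psmb9 (-0.71 and 0.12) had opposite signs too, but were under 1 unit in both MP and P. With Prep1 added per the labels, Psmb10 was higher in P than EV (0.20) and lower in MP than M (-0.12).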

How the results depend on the processing

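The members' median log2 ratio to EV stayed below 0 in 47 of 48 alternative values; medians within 0.25 and counts within 1.5 times of the reported value are not listed. The exception was M on deposited values (0.58), where the median of all genes was itself 1.26 (P -3.23, MP -3.48, WT -3.06); the members' medians there were -4.73 (P), -4.49 (MP) and -3.58 (WT), with 0 members 2-fold lower in M and 9 each in MP and WT. On those values Tap1 (0.0848), Tap2 (0.0157), Psmb10 (0.76), B2m (1.31), H2-K1 (1.02) and H2-Q4 (0.58) changed sign in M, as did Psmb10 in P (-2.99) and Tap1 (-3.30), Tap2 (-1.63) and Psmb10 (-3.02) in WT, which follows from the library shift.

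The share of all genes 2-fold lower was not counted under the alternative settings, so nothing is read from their counts of members. A pseudocount of 0.1 gave medians of -2.07 in P and -1.52 in MP and 3 members 2-fold lower in M. These 3 were Tap1, Tap2 and Psmb8, all under the receptor percentile in M. Scaling to the median, which also lifts levels against the pseudocount, gave medians of -2.07 (P), -1.51 (MP) and -0.79 (WT) and 4 members in M, with signs changed at B2m in MP (0.20) and at Tap1 (-0.20) and Psmb10 (-0.13) in WT. Quantile normalisation changed the sign of Tap1 (-0.33) and Psmb10 (-0.17) in WT. A filter at 5 units left 4 or 5 members, with medians of -0.26 in M and -1.12 in WT and 0, 3 and 2 members 2-fold lower in M, P and MP. Without H2-K1 and H2-Q4 the WT median was -0.11. The alternative chosen after seeing the data that kept members over the receptor percentile in both libraries gave -0.26 in M and 0 members; subtracting the receptor median, or leaving out Nlrc5, moved no median or count past those bounds. Leaving out replicates was not possible with 1 library a group.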
